A study of Mus musculus with 6 samples.

Results

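Umod and 7 genes of salt transport in the thick ascending limb and the distal convoluted tubule were followed in whole mouse kidneys with forced Notch1 signalling. The 8 genes were chosen by name: Umod, Slc12a1, Slc12a3, Bsnd, Wnk1, Wnk4, Stk39 and Oxsr1. All 8 were measured among the 19937 genes of the array. The tested kidneys, called NICD1 here, came from mice of genotype Pax8rtTA TREICNotch1 (3 arrays), which carry a tetracycline-responsive Notch1 intracellular domain that is driven in tubule epithelial cells by a transactivator under Pax8 control. They were set against kidneys of littermates labelled normal and wild type (3 arrays). Age, sex, strain, the inducing drug and the duration of induction are not given in the sources used here. The labels do not say whether an array holds 1 animal or a pool, so p-values measure the spread between these arrays.

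The thick ascending limb takes up sodium, potassium and chloride from the tubular fluid through the apical cotransporter encoded by Slc12a1, the target of loop diuretics. Chloride leaves on the blood side through channels that need the accessory subunit barttin, the product of Bsnd. The distal convoluted tubule, the next segment, uses the thiazide-sensitive sodium-chloride cotransporter encoded by Slc12a3. The WNK kinases (Wnk1, Wnk4) phosphorylate and activate the kinases SPAK (Stk39) and OSR1 (Oxsr1), which in turn phosphorylate and activate both cotransporters. Uromodulin, the product of Umod, is made almost entirely by thick limb cells and is the most abundant protein of normal urine.

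Values are log2 expression after the authors' RMA normalization, so a difference of 1 is a 2-fold change. A gene was called higher or lower in NICD1 kidneys at an adjusted p under 0.05 in a limma fit over all genes with Benjamini-Hochberg adjustment, and every adjusted p of a gene's difference below is from this fit. Notch1 itself was 3.63 log2 higher in NICD1 kidneys (adjusted p = 1.52e-07). Array medians were 5.03 to 5.11 in NICD1 kidneys and 4.93 to 4.99 in controls. Centring the arrays on these medians moved the median difference of all genes to -0.091, against 0.0148 as deposited, and the share of calls that were higher to 41.4%, against 54.4%.

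Of the 8 genes, 4 fell (Slc12a1, Slc12a3, Bsnd and Wnk1), 2 rose (Stk39 and Umod) and 2 did not pass (Wnk4 and Oxsr1). Among all genes 14.9% were called lower and 17.8% higher, together 32.7%. Both shares were larger among genes within 1 log2 unit of a member's mean level. There, 20.4% (for Bsnd) to 48.3% (for Slc12a3) were called lower, with 43.4% for Slc12a1 and 39.9% for Wnk1. The shares called higher were 25.4% (for Stk39) to 36.4% (for Umod). The median difference of the 8 genes was -0.141 log2, against 0.0148 over all genes. The groups did not overlap for 7 of the 8, the exception being Wnk4, with NICD1 arrays above for 3 and below for 4. Over all genes the groups did not overlap for 43.4%, with NICD1 above for 23.7% and below for 19.7%. The 2 cotransporters fell by more than 2 log2 units, while Umod, a product of the same limb as Slc12a1, differed by 0.32 in the other direction.

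**Figure D1:**
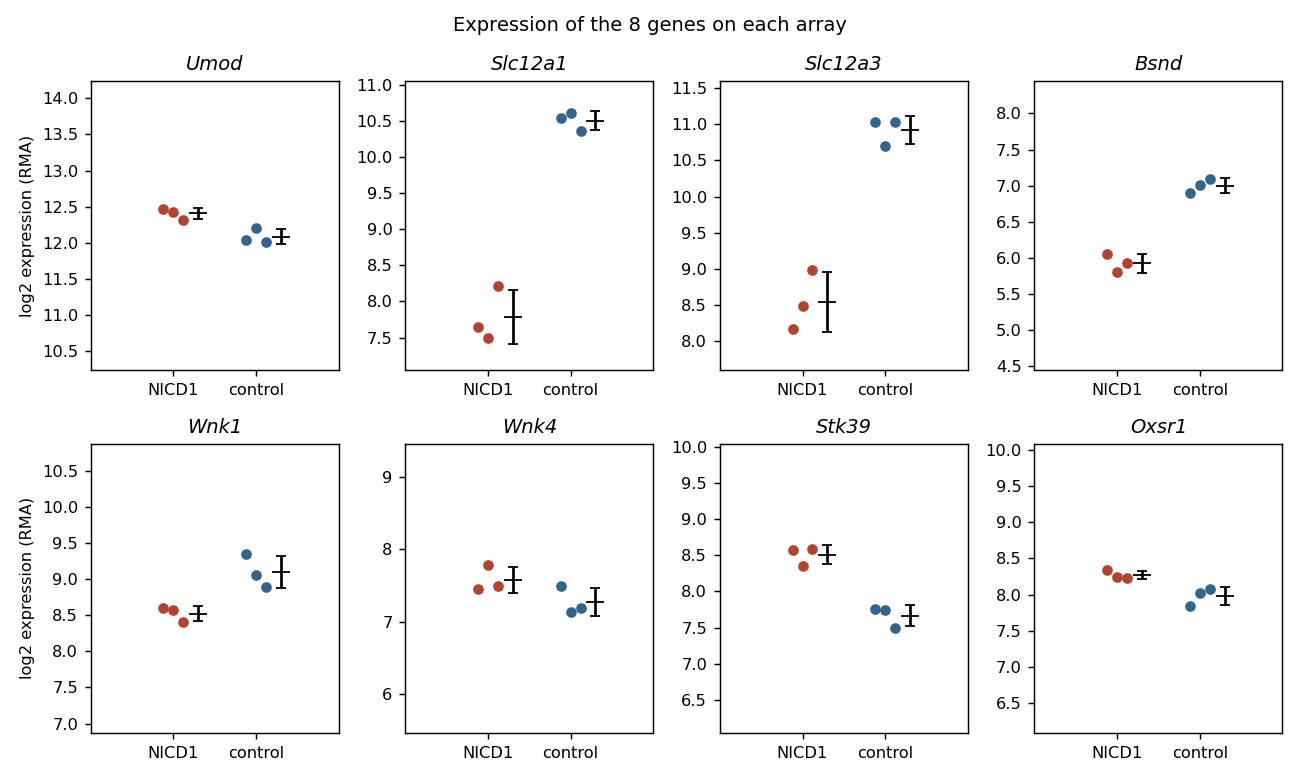
Log2 expression (y axis, each panel spanning 4 log2 units) of the 8 genes on the 3 NICD1 and 3 control arrays. Each coloured point is an array, and the black bar beside it is the group mean ± SD. Slc12a1, Slc12a3 and Bsnd lie well below their controls in NICD1 kidneys, Stk39 lies above, and Umod stays within a narrow band from 12.01 to 12.47.

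Umod was among the brightest genes in both groups. It stood at 12.47, 12.43 and 12.32 in NICD1 replicates 1 to 3, against 12.04, 12.21 and 12.01 in control replicates 1 to 3. All 3 NICD1 arrays were above all 3 control arrays, with a gap of 0.11 between the lowest NICD1 and the highest control array. The means were 12.41 ± 0.08 in NICD1 kidneys and 12.08 ± 0.11 in controls (SD, n = 3 each), a rise of 0.32 log2 (SE 0.10, 95% interval 0.087 to 0.556, adjusted p = 0.0403) or 1.25-fold. Of all genes, 19.8% had a larger positive difference. The call was lost after centring of arrays (0.22, adjusted p = 0.191), with every probe set of the table in the fit (adjusted p = 0.0709) and without any of 4 of the 6 arrays (control replicate 1 or 3, NICD1 replicate 1 or 2), over adjusted p-values of 0.0123 to 0.191 in all alternatives. Umod lies near the top of the measured range, where the brightest values of single arrays were 13.41 to 13.67, and the effect of probe saturation on its fold was not tested.

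The thick limb cotransporter gene Slc12a1 had the largest fall of the 8. It stood at 7.65, 7.49 and 8.21 in NICD1 replicates 1 to 3, against 10.54, 10.61 and 10.35 in controls. The groups were separated by 2.14 log2 units, and NICD1 replicate 3 was the highest of its group. The mean was 7.78 ± 0.38 in NICD1 kidneys against 10.50 ± 0.13 in controls (SD, n = 3 each), a fall of 6.57-fold (-2.71 log2, SE 0.18, adjusted p = 4.98e-06). Only 0.843% of all genes had a more negative difference. In whole-kidney RNA, fewer cells of a type and less of a transcript per cell cannot be told apart, and this holds for each fall described here. Likewise, a larger share of cells of a type and more of a transcript per cell cannot be told apart for each rise.

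The distal convoluted tubule cotransporter gene Slc12a3 fell to a similar degree. It stood at 8.17, 8.48 and 8.98 in NICD1 replicates 1 to 3, against 11.03, 10.70 and 11.03 in controls. Every NICD1 array was at least 1.72 log2 units under the lowest control array, and again replicate 3 was the highest of the NICD1 group. The mean was 8.54 ± 0.41 in NICD1 kidneys against 10.92 ± 0.19 in controls, a fall of 5.20-fold (-2.38 log2, SE 0.20, adjusted p = 1.81e-05). The mean level of 12 proximal tubule markers was likewise highest in NICD1 replicate 3 (6.14, 6.66 and 7.13 in replicates 1 to 3, against 10.67, 10.76 and 10.75 in controls). Its part in these 2 falls was not tested, and both calls were kept without NICD1 replicate 3 (-2.93 for Slc12a1 and -2.60 for Slc12a3).

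Bsnd, whose product barttin brings the basolateral chloride channels to the membrane, fell less. Its levels were 6.06, 5.80 and 5.93 in NICD1 replicates 1 to 3, against 6.89, 7.01 and 7.10 in controls. All NICD1 arrays were below all controls, by 0.84 log2 at the least. The fall was 2.10-fold (-1.07 log2, SE 0.11, adjusted p = 7.06e-05). Both the thick limb and the distal convoluted tubule use barttin, as do intercalated cells and the inner ear.

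The sequences 250 bases upstream of the annotated starts of the cotransporter genes, which fell together, and of Umod, which did not fall, are shown for comparison. They are from RefSeq on build GRCm38.p6, and a window was held for 7 of the 8 genes, with none used here for Bsnd. Capitals mark TGGGAA, the core bound by RBPJ (the protein through which the Notch intracellular domain meets DNA), searched on both strands. The match in Slc12a1 is on the opposite strand and so reads TTCCCA. The window of Slc12a1 is chr2:125152350-125152599 on the plus strand, that of Slc12a3 is chr8:94328958-94329207 on the plus strand and that of Umod is chr7:119479263-119479512 on the minus strand. Each is printed 5′ to 3′ along its gene.
Slc12a1: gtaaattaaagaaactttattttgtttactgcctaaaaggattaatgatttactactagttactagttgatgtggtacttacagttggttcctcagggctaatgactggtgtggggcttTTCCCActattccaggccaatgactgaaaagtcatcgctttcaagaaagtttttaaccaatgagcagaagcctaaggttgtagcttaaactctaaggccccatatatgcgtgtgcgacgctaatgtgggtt
Slc12a3: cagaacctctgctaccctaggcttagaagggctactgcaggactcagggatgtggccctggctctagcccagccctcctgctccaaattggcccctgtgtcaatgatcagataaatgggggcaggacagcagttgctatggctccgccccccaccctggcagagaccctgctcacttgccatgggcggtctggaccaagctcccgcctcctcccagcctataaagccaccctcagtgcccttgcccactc
Umod: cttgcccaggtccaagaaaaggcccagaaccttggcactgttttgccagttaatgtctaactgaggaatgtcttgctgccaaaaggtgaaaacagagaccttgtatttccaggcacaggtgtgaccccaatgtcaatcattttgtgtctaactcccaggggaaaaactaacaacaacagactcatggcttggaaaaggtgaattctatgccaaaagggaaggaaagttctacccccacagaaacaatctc

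The RBPJ core stood in the windows of 2 of the 7 genes, Slc12a1 (bases 131 to 126 before the start) and Wnk1 (231 to 226), and in 21.6% of the 32851 promoter windows of this length. The windows of Slc12a3 and Umod do not hold it. A match is a run of letters and not a measured binding site.

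Unequal changes of 5 pairs of genes were compared through the within-array difference of their log2 values, which cancels any shift of a whole array. With 3 arrays against 3, the smallest p an exact permutation test can give is 0.1, so no pair could pass 0.05. Umod minus Slc12a1 was 4.82, 4.94 and 4.11 in NICD1 replicates 1 to 3, against 1.51, 1.60 and 1.65 in controls. The 2 genes of the same limb therefore differed in their change by 3.04 log2 or 8.21-fold, higher in 3 of 3 NICD1 arrays than in any control (exact two-sided permutation p = 0.1, adjusted p = 0.125 over 5 pairs). Bsnd minus Slc12a1 was 1.64 log2 higher in NICD1 kidneys, again without overlap of the groups (exact permutation p = 0.1, adjusted p = 0.125). Slc12a3 minus Slc12a1 averaged 0.76 ± 0.24 in NICD1 kidneys and 0.42 ± 0.30 in controls. The groups overlapped, and the difference of 0.34 (exact permutation p = 0.2, adjusted p = 0.2) was 0.17 without control replicate 2 and 0.46 without control replicate 3.

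**Figure D2:**
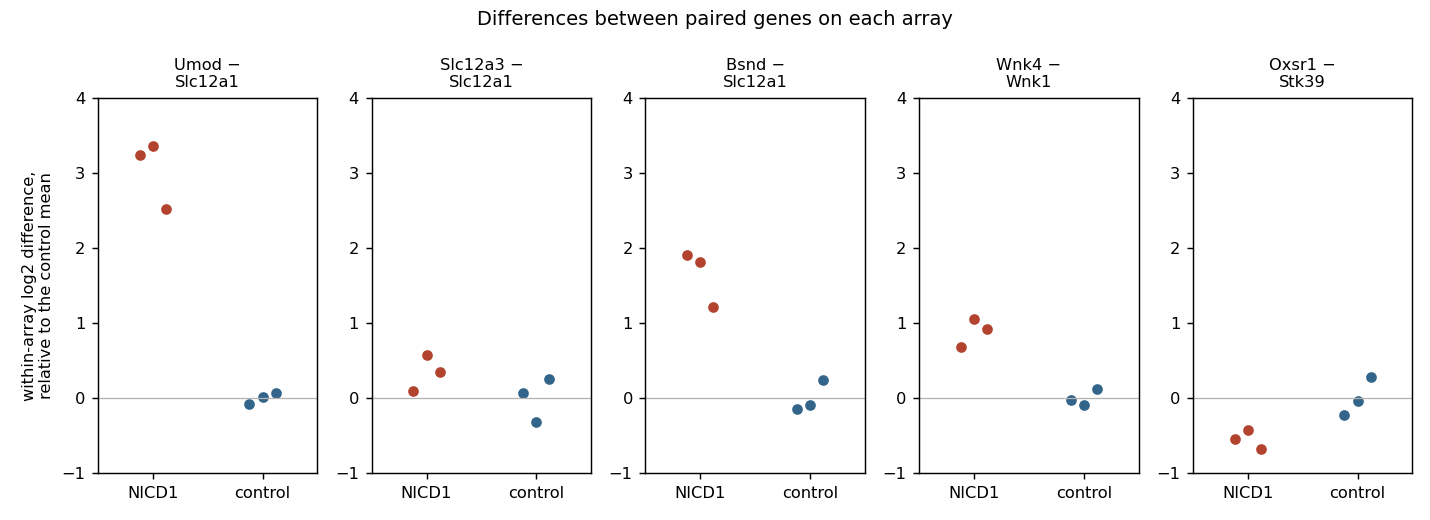
Within-array log2 difference of 5 pairs of genes (y axis, relative to the mean of the controls), with 1 point for each of the 3 NICD1 and 3 control arrays. Umod minus Slc12a1 and Bsnd minus Slc12a1 are shifted upward in all 3 NICD1 arrays, and Slc12a3 minus Slc12a1 overlaps between the groups.

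The 4 kinase genes did not move together. Wnk1, whose long form activates SPAK and OSR1 and whose short kidney form lacks the kinase domain, was lower on both of its probe sets. On the brighter it stood at 8.60, 8.57 and 8.40 in NICD1 replicates 1 to 3, against 9.34, 9.05 and 8.90 in controls, a fall of 1.49-fold (-0.57 log2, SE 0.13, adjusted p = 0.00795). The other probe set, which the platform annotation assigns to fewer RefSeq transcripts (2 against 5), stood at 7.48, 7.34 and 7.34 in NICD1 kidneys, against 8.25, 8.09 and 7.91 in controls. Its difference was -0.69 log2 (SE 0.12, adjusted p = 0.00201 in a limma fit over 28187 probe sets), without overlap of the groups. The files do not say which probes lie in the exon that is particular to the kidney form, so the forms were not separated.

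Wnk4, mutated in a familial human hypertension with high potassium, did not pass. It stood at 7.45, 7.79 and 7.49 in NICD1 replicates 1 to 3, against 7.49, 7.13 and 7.18 in controls. Control replicate 1 lay above the lower NICD1 arrays. The difference was 0.31 log2 (95% interval -0.00088 to 0.616, adjusted p = 0.127), and 0.20 both without NICD1 replicate 2 and after centring of arrays. Wnk4 minus Wnk1 was 0.88 log2 higher in NICD1 kidneys, and the groups did not overlap (exact permutation p = 0.1, adjusted p = 0.125 over 5 pairs).

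Stk39, which encodes SPAK, the kinase on which the distal convoluted tubule cotransporter depends most in mice, rose while both cotransporter genes fell. It stood at 8.58, 8.36 and 8.59 in NICD1 replicates 1 to 3, against 7.76, 7.75 and 7.50 in controls. The NICD1 arrays lay above the controls by 0.60 log2 at the least. The rise was 1.79-fold (0.84 log2, SE 0.12, adjusted p = 0.000473), and 6.27% of all genes had a larger one. Oxsr1, the close relative OSR1, stood at 8.34, 8.25 and 8.22 in NICD1 kidneys, against 7.84, 8.01 and 8.08 in controls. The groups did not overlap, but the difference of 0.29 log2 (95% interval 0.054 to 0.528) missed the threshold (adjusted p = 0.0627). Oxsr1 minus Stk39 was 0.55 log2 lower in NICD1 kidneys, below every control in 3 of 3 arrays (exact permutation p = 0.1, adjusted p = 0.125).

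**Figure D3:**
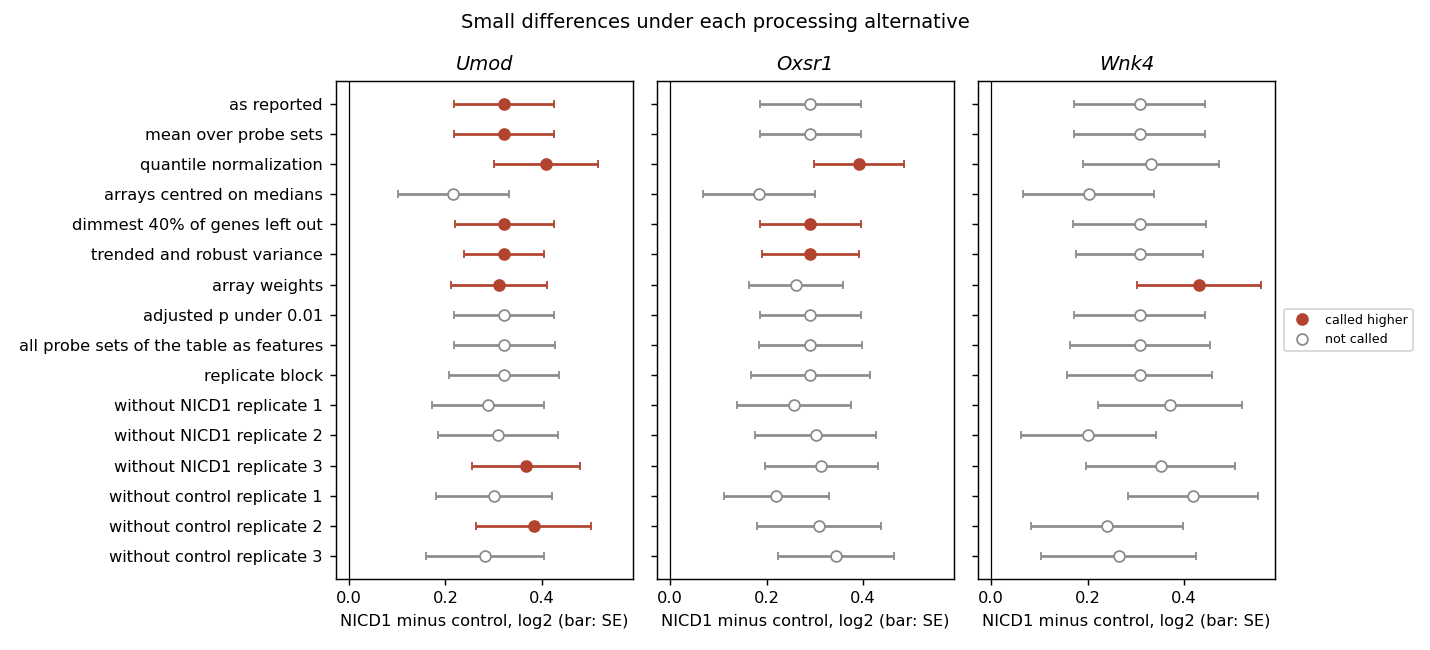
Difference between NICD1 and control kidneys (x axis, log2, bars ± SE) for Umod, Oxsr1 and Wnk4 as reported and under each processing alternative (y axis). Filled red points are calls of higher, open grey points are not called. All values are above 0, and Umod is called in 7 of its 15 alternatives.

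Listed partners of the WNK pathway went both ways. The list held 18 measured genes, of which 6 fell, 2 rose and the other 10 missed the threshold. Thus 33.3% fell and 11.1% rose, against 14.9% and 17.8% of all genes. Among genes within 1 log2 unit of the mean level of Stk39, 33.6% fell and 25.4% rose, so the share that fell was near theirs. The median difference of the 18 was -0.18 log2, and the count that fell was 3 to 7 over the alternatives. The risen were the ubiquitin ligase Nedd4l (0.90 log2, adjusted p = 0.000266), which targets sodium transport proteins for removal, and the sorting receptor Sorl1 (0.47 log2, adjusted p = 0.0041). Klhl3 and Klhl2, the adaptors that carry WNK kinases to the cullin 3 ubiquitin ligase for degradation, fell by 0.63 and 0.80 log2 (adjusted p = 0.00731 and 0.0028), and Cul3 itself by 0.34 (adjusted p = 0.0319). The Cul3 call was lost under 7 alternatives, quantile normalization among them (-0.18, adjusted p = 0.201). The potassium channel gene Kcnj10, through which the distal convoluted tubule senses plasma potassium, fell by 0.82 log2 (adjusted p = 0.0038). The aldosterone-induced kinase gene Sgk1 stood at 5.68, 5.93 and 5.01 in NICD1 kidneys, against 7.83, 5.88 and 5.77 in controls, and its difference did not pass (-0.96 log2, adjusted p = 0.184). Without control replicate 1 it was -0.29.

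**Figure D4:**
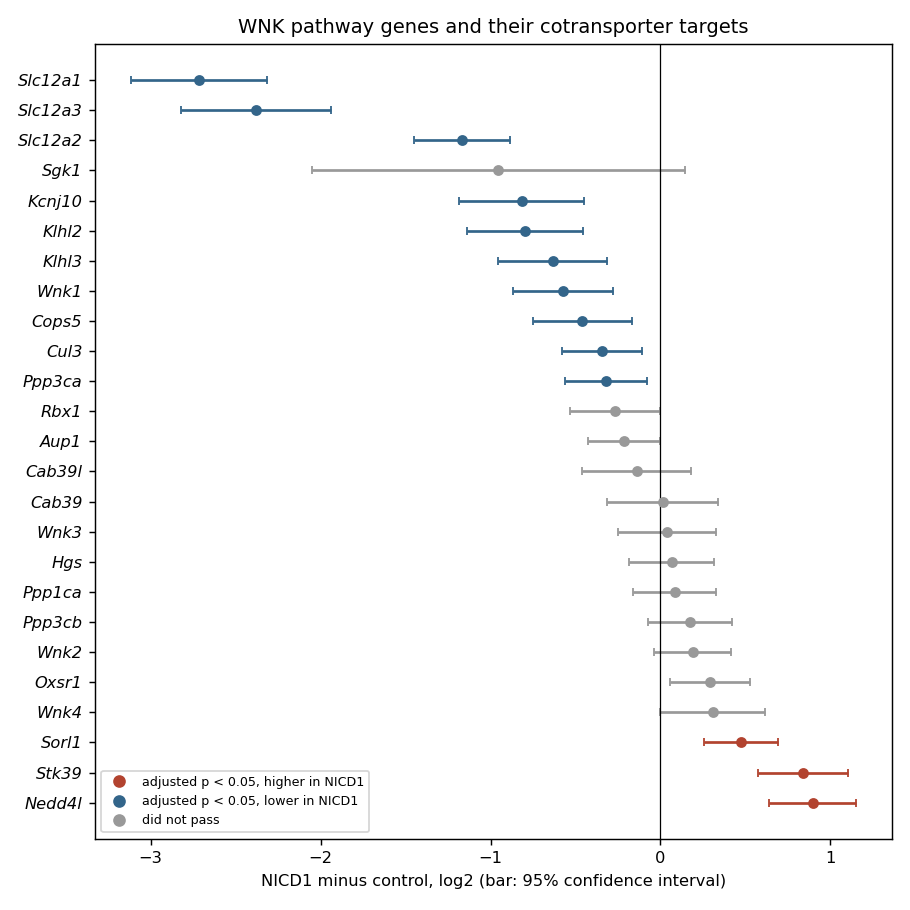
Difference between NICD1 and control kidneys (x axis, log2, with 95% confidence intervals) for the WNK, SPAK and OSR1 genes, their listed partners and 3 cotransporter genes they act on. Red and blue mark genes called higher and lower, and grey those that did not pass. Slc12a1 and Slc12a3 lie at -2.71 and -2.38, and Stk39 and Nedd4l at 0.84 and 0.90.

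Among the other genes of the Slc12 cation-chloride cotransporter family, Slc12a2 and Slc12a7 fell. Of 6 measured, 2 fell and 4 did not pass, with a median difference of -0.043 log2. Thus 33.3% fell, against 14.9% of all genes. The groups did not overlap for 2 of these 6, against 43.4% of all genes. Slc12a2, the widely expressed sodium-potassium-chloride cotransporter, stood at 7.01, 6.79 and 6.73 in NICD1 kidneys, against 7.81, 8.12 and 8.11 in controls (-1.17 log2, adjusted p = 9.38e-05). The potassium-chloride cotransporter gene Slc12a7 fell by 0.47 log2 (adjusted p = 0.0119), a call lost without control replicate 2 or 3 (adjusted p = 0.0521 and 0.0515). Slc12a4 and Slc12a9 differed by 0.17 and -0.083 log2 (adjusted p = 0.328 and 0.60), and Slc12a4 by 0.083 without NICD1 replicate 1, 0.27 without NICD1 replicate 3 and 0.069 after centring of arrays.

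Other listed genes of the thick limb mostly fell, as Slc12a1 did. Of 18 measured, 11 fell, 3 rose and 4 did not pass, with a median difference of -0.96 log2. Thus 61.1% fell and 16.7% rose, against 14.9% and 17.8% of all genes, so the share that rose was near that of all genes. Among genes within 1 log2 unit of the mean level of Slc12a1, 43.4% fell and 25.7% rose. The count that rose was 1 after centring of arrays. Egf, which encodes the precursor of epidermal growth factor and is also made in the distal convoluted tubule, stood at 5.28, 5.26 and 5.94 in NICD1 kidneys, against 11.42, 11.45 and 11.27 in controls. That was a fall of 59.0-fold (-5.88 log2, adjusted p = 1.26e-07). Tmem207 fell by 4.48 log2, the calcium-sensing receptor gene Casr fell by 2.18 and the phosphatase inhibitor gene Ppp1r1a fell by 1.94, with adjusted p-values of 3.83e-06 or less.

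Among the genes not called lower were those of the tight junction pore for calcium and magnesium and some transcription factors. For the pore genes a fall was not excluded. Cldn16 stood at 6.95, 6.63 and 6.13 in NICD1 kidneys, against 6.79, 6.95 and 7.13 in controls. Its difference was -0.39 log2 with a 95% interval of -0.82 to 0.048 (adjusted p = 0.174). Of the alternatives run, Cldn16 passed as lower only without NICD1 replicate 1 (-0.58, adjusted p = 0.0304), and differed by -0.17 without NICD1 replicate 3. Its partner Cldn19 stood at 7.55, 6.38 and 6.72 in NICD1 kidneys, against 6.97, 7.09 and 6.70 in controls. Its mean difference was -0.039 log2 with a 95% interval of -0.62 to 0.54 (adjusted p = 0.94), and its sign turned without any of 3 arrays. The homeobox gene Irx2 rose by 0.94 log2 (adjusted p = 0.000517), whereas its family member Irx3 fell by 0.91 (adjusted p = 0.000773). Irx1 and Pou3f3 rose by 0.42 and 0.35 (adjusted p = 0.0184 and 0.033), and after centring of arrays neither passed (0.31 and 0.24, adjusted p = 0.0783 and 0.136).

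**Figure D5:**
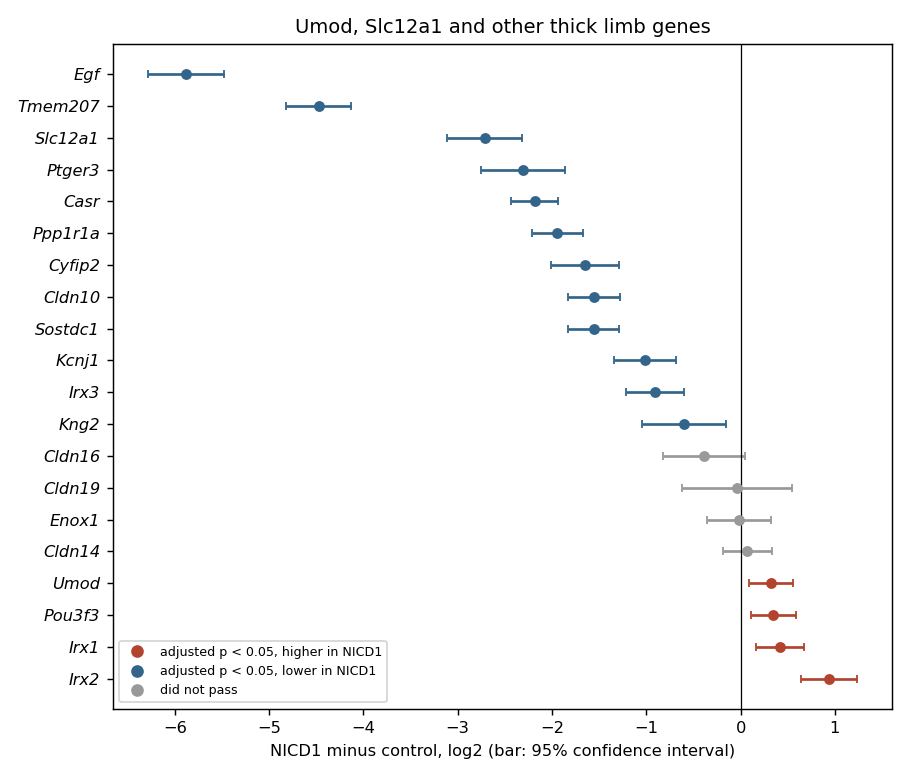
Difference between NICD1 and control kidneys (x axis, log2, with 95% confidence intervals) for Umod, Slc12a1 and 18 other thick limb genes, ordered by size. Colours are as called by limma. Umod (0.32) lies among Pou3f3, Irx1 and Irx2 at the higher end, and Slc12a1 (-2.71) lies next to Tmem207 toward the lower end.

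Genes mutated in inherited salt or magnesium wasting of these segments mostly fell. Of 8 measured, 6 fell and 2 rose, with a median difference of -1.22 log2, and the counts were the same under every alternative run on them. The shares were 75% and 25%, against 14.9% and 17.8% of all genes. The fallen were Casr, the sodium pump subunit gene Fxyd2 (-1.94 log2), the tight junction gene Cldn10 (-1.56) and 3 potassium channel genes. These were the basolateral Kcnj16 (-1.42) and Kcnj10, and the apical Kcnj1. Cldn10 was measured as a whole gene, without separating its transcript forms. Kcnj1, which returns potassium to the lumen for Slc12a1, stood at 8.28, 7.74 and 8.16 in NICD1 kidneys, against 9.15, 9.07 and 8.99 in controls (-1.01 log2, adjusted p = 0.000541). The risen were Maged2 (0.92 log2, adjusted p = 0.00174) and the mTORC1 regulator Rragd (0.60, adjusted p = 0.00195). Casr, Cldn10 and Kcnj1 also stand in the thick limb list, Kcnj10 also in the WNK list, Kcnj10 and Kcnj16 also in the distal convoluted tubule list and Fxyd2 also in the next list, so these falls are counted in each.

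Among listed pumps, exchangers and channels, 4 of 7 measured fell and 1 rose (median -0.95 log2). These were 57.1% and 14.3%, against 14.9% and 17.8% of all genes. The apical sodium-proton exchanger gene Slc9a3, shared with the proximal tubule, fell by 3.26 log2 (adjusted p = 3.96e-06), and the potassium channel genes Kcnj15 and Kcnma1 by 2.01 and 0.95 (adjusted p = 0.000196 and 0.00455). The sodium pump beta subunit gene Atp1b1 averaged 11.29 ± 0.14 in NICD1 kidneys and 11.53 ± 0.10 in controls, and did not pass (-0.24 log2, adjusted p = 0.147, and -0.16 without NICD1 replicate 3). Fxyd2 is among the 4 here too.

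Genes of the distal convoluted tubule, the segment of Slc12a3, fell broadly. Of 15 measured, 12 fell and the remaining 3 did not pass, with a median difference of -0.96 log2. Thus 80% fell, against 14.9% of all genes and 48.3% of genes within 1 log2 unit of the mean level of Slc12a3. Klhl3 and Kcnj10 of the WNK list are among these 12. Pvalb, the calcium-binding parvalbumin of the early segment, stood at 3.20, 3.69 and 3.52 in NICD1 kidneys, against 6.94, 6.56 and 7.13 in controls (-3.41 log2, adjusted p = 1.47e-06). The calcium-binding genes Calb1 and S100g and the FGF23 co-receptor gene Kl fell, with differences of -4.15, -2.98 and -2.68 log2 (adjusted p = 4.67e-06, 7.95e-06 and 3.25e-06). Of 6 genes listed for the macula densa, the salt-sensing cells at the end of the thick limb, 3 fell and 3 did not pass. The share that fell was 50%, against 14.9% of all genes. Avpr1a fell by 1.62 log2, Robo2 by 0.89 and Ramp3 by 0.85 (adjusted p = 3.6e-05, 0.000428 and 0.00442). The prostaglandin synthase gene Ptgs2 averaged 4.47 ± 0.36 in NICD1 kidneys and 3.97 ± 0.11 in controls, and its difference of 0.50 missed the threshold (adjusted p = 0.0503). It passed under 5 alternatives, and was 0.29 (adjusted p = 0.0988) without NICD1 replicate 1.

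Genes listed for uromodulin processing or a shared disease, together with its relative Gp2, divided evenly. Among 7 measured genes, 3 fell, 3 rose and the remaining 1 missed the threshold. Each direction thus held 42.9%, against 14.9% lower and 17.8% higher among all genes. Hpn, the protease hepsin that cuts uromodulin free from the thick limb surface, stood at 8.66, 9.09 and 8.96 in NICD1 kidneys, against 9.71, 9.82 and 9.73 in controls (-0.85 log2, adjusted p = 0.000667). Prss8, the protease prostasin, fell by 1.32 log2 (adjusted p = 1.97e-05), and Dnajb11, an endoplasmic reticulum co-chaperone, by 0.70 (adjusted p = 0.00296). Gp2, which encodes a membrane-anchored relative of uromodulin, stood at 6.90, 6.93 and 6.67 in NICD1 kidneys, against 5.73, 5.23 and 5.37 in controls. It rose 2.62-fold (1.39 log2, SE 0.14, adjusted p = 7.50e-05), without overlap of the groups. Muc1, a mucin of the distal nephron, rose by 1.94 log2 (adjusted p = 0.00441) with a wide spread in NICD1 kidneys (8.43, 7.75 and 6.51, against 5.95, 5.40 and 5.52 in controls), and the translocon gene Sec61a1 rose by 0.34 (adjusted p = 0.0249), a call lost after centring of arrays (0.24, adjusted p = 0.11).

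Gp2 and Umod are direct neighbours among the protein-coding genes of the RefSeq table. On the other side of Umod, Pdilt differed by 0.054 log2 (adjusted p = 0.775), and beyond it the fatty acid activating genes Acsm5 and Acsm2 fell by 2.82 and 4.94 log2 (adjusted p = 8.69e-06 and 1.36e-05). These neighbours were looked up after the values of Gp2 were seen.

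Genes with the most similar profile were sought by the root mean square difference of gene-centred values over the 6 arrays, among genes of a mean level within 1 log2 unit. For Umod the nearest of 22 such genes were the small nuclear RNA gene Rn7sk (0.115), the elongation factor gene Eef1a1 (0.121) and Tpt1 (0.122), whose differences were 0.27, 0.43 and 0.33 log2. Over all 22, 8 were called higher and 9 lower, with a median difference of -0.169 log2. For Slc12a1 the nearest of 1458 were Aldh7a1 (0.135), Ugt8a (0.16) and Pter (0.184), with differences of -2.69, -2.53 and -2.97 log2. For Slc12a3 the nearest of 741 were Slc47a1 (0.188), Cryzl2 (0.211) and Aldh9a1 (0.213), and for Oxsr1 the nearest of 3515 were Eif2ak3 (0.0205), Akap13 (0.0243) and Ist1 (0.0257). With 2 groups, this measure mostly ranks genes by the size of their group difference.

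Markers of other cell types moved in the same kidneys, in which 14.9% of all genes fell and 17.8% rose. All 12 proximal tubule markers fell (median -4.61 log2), as did 7 of 8 intercalated cell markers (median -2.33). Of 8 principal cell markers 2 rose and 2 fell, and of 6 endothelial markers 4 fell. Of 4 podocyte markers measured, 1 rose and 2 fell. Of 8 macrophage markers 7 rose (median 2.31 log2), and the mean level over them was 6.92 to 7.81 in NICD1 arrays and 5.02 to 5.20 in controls. Of 7 fibroblast markers 5 rose, with a mean level of 7.68 to 8.51 in NICD1 arrays and 6.94 to 7.25 in controls. The part of these shifts in the falls of Slc12a1, Slc12a3 and Bsnd, the rises of Stk39 and Umod and the other changes described here was not tested.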

How the data were processed

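RNA from whole kidneys of 6 mice or pools (3 NICD1, 3 littermate control arrays) was hybridised to Affymetrix arrays. Per the labels' protocols, the authors prepared it with TRIzol, biotin-labelled it, imported the raw files into GeneSpring and normalized them with RMA16. The deposited values are log2 expression values per probe set, and RMA compresses differences of dim genes. The version of GeneSpring, detection calls, scan batches and a genome build are not given in the sources used here. The number of arrays limits the precision.

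Of 34760 probe sets, 6573 numbered below the lowest annotated one were left out of the fit. Gene names came from the platform annotation. Of the rest, 21640 had 1 symbol and 1321 several, which were not named. Each gene was represented by its single-symbol probe set with the highest mean over the 6 arrays (19937 genes). NICD1 minus control was tested two-sided with limma 3.58.1 in R 4.3.3, with no covariate. The procedure was tested on simulated data. Gene lists (15, with proximal tubule and other cell type markers among them) are described by counts and medians, without set tests. The genes and lists were chosen with earlier results of these data known.

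The genes named are the 8 members, up to 4 genes with the lowest p from each list that is no cell type marker list, and the 3 genes nearest in profile to Umod, Slc12a1, Slc12a3 and Oxsr1. Cldn16, Cldn19, Irx1, Irx2, Irx3, Pou3f3, Kcnj1, Klhl3, Cul3, Muc1, Sec61a1, Maged2, Rragd, Sgk1, Atp1b1 and the neighbours of Umod were named after their values were seen. Promoter windows come from RefSeq (GRCm38.p6). The result of 1 planned promoter motif is not reported here. Protein sequences were not used here, so a planned search for kinase docking motifs was not run. The replicate numbers showed no sign of pairing the arrays, which so few arrays cannot exclude. The alternatives were the mean over probe sets, quantile normalization, centring, a robust trended variance, a filter that left out the dimmest 40% of genes, array weights, an adjusted p threshold of 0.01, all probe sets as features, the replicate block and leaving out each array.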

Additional observations from a re-analysis of the deposited data

How the results depend on the processing

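All 8 genes kept their direction under the 15 alternatives, and Slc12a1 (-2.93 to -2.57 log2), Slc12a3 (-2.60 to -2.19), Bsnd (-1.18 to -1.01), Wnk1 (-0.68 to -0.43) and Stk39 (0.73 to 0.93) also kept their calls. The count of fallen members was 4 throughout. The count of risen members, 2 as reported, was 1 after centring, at an adjusted p of 0.01, with all probe sets as features and with the replicate block, and 1 to 2 when each array was left out. It was 3 under quantile normalization, without the dimmest genes, with a trended and robust variance and with array weights. Umod was not called after centring (0.22 log2), at the threshold of 0.01 (0.32), with all probe sets (0.32), with the replicate block (0.32, adjusted p = 0.0726) or without 4 of the 6 arrays (range 0.28 to 0.38 over all 6). Wnk4 passed as higher with array weights (0.43, over a range of 0.20 to 0.43), and Oxsr1 under quantile normalization (0.39), without the dimmest genes (0.29) and with a trended and robust variance (0.29). The causes were not tested. The correlations of same-numbered arrays' deviations were -0.0702 to -0.0115, and no NICD1 array matched its own number best. The numbers thus showed no sign of pairing, but 3 arrays per group cannot exclude it. The block also moved the counts over all genes to 3219 higher and 2762 lower, against 3551 and 2978. Among 57 other named genes, whose alternatives were chosen after seeing the data, 734 of 796 values kept direction and call, 40 lost and 19 gained a call, and 3, all of Cldn19, turned in sign (0.21 and 0.041 without NICD1 replicates 2 and 3, 0.047 without control replicate 2, over a range of -0.37 to 0.21 as each array was left out). The differences of paired genes kept their signs, with Umod minus Slc12a1 at 2.88 to 3.29, Slc12a3 minus Slc12a1 at 0.17 to 0.46, Wnk4 minus Wnk1 at 0.76 to 0.98 and Oxsr1 minus Stk39 at -0.67 to -0.41 log2. Without detection calls, signal over background could not be judged for dim genes such as Pvalb in NICD1 kidneys.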
